A study of Mus musculus with 8 samples.

Results

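Natriuretic peptides and other factors that muscle secretes were followed in C2C12 myotubes, the multinucleated cells formed by this established mouse myoblast line. The list named 10 genes: Nppa, Nppb, Fndc5, Mstn, Gdf15, Il15, Igf1, Igf2, Metrnl and Tgfb3. A gene was measured where the platform annotation gave it a probe set of its own, and its level was read from the probe set with the highest mean log2 intensity over all 8 arrays. By that rule 8 of the 10 were measured, out of 18193 genes in all, with 15 probe sets among them. Mstn and Gdf15 were not analysed here. The list was chosen by the deposited intensities of these same arrays, in which Nppb and Tgfb3 stood out over the 4 groups, so the values of those 2 genes below are a description with no test, and the other 6 measured genes were tested.

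All cultures were switched to medium with 2% dialysed serum, received adenovirus after 3 days and gave RNA 3 days later. The 4 groups were GFP-tagged PGC-1α with 100 µM deferoxamine (PGC-1α plus DFO), GFP-tagged PGC-1α alone (PGC-1α), GFP with 100 µM deferoxamine (GFP plus DFO) and GFP alone (GFP), with 2 arrays each. PGC-1α is a transcriptional coactivator of genes of oxidative metabolism, and deferoxamine binds ferric iron. GFP cultures were infected too, so every comparison is between infected cells of 1 line, and the arrays of a group are described as biological duplicates.

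Levels are deposited probe-set intensities on a linear scale, with array medians of 59.5 to 62.8 units. Ppargc1a, the gene of the construct, by its leading probe set read 7820 ± 155 units with PGC-1α plus DFO, 7123 ± 123 with PGC-1α, 57.4 ± 43.5 with GFP plus DFO and 33.0 ± 6.11 with GFP (SD, n = 2). The summed intensity of 8 myotube markers was 11070 and 10497 units with PGC-1α plus DFO, 43733 and 43867 with PGC-1α, 19031 and 18935 with GFP plus DFO, and 56305 and 53250 with GFP, with none of the 8 listed at 0. That of 8 markers of undifferentiated myoblasts and reserve cells was 1490 to 1833 units on the 4 arrays with DFO and 2875 to 3027 on the 4 without, also with none at 0. Its members did not move together. With DFO 2 passed higher and 2 lower in PGC-1α myotubes (11.4% and 14.2% of all genes). In GFP myotubes 3 of each did (11.8% and 12.5%). Of the 8 myotube markers 0 passed higher with DFO, and 8 and 7 passed lower in PGC-1α and GFP myotubes. Their log2 changes ran from -6.30 (Myog) to -0.77 (Acta1) in PGC-1α myotubes. In GFP myotubes they ran from -5.08 to -0.26, for the same 2 genes. Cd34, a reserve cell marker, rose by 1.06 and 1.43 on the log2 scale, while the myogenic factor Myod1 had -4.43 and -2.98 in these 2 comparisons (limma, adjusted p = 0.00673 and 0.00285, and 0.00011 and 0.000376). For beta-actin, the 5' probe set's signal divided by the 3' one's, a sign of RNA quality, was 0.753 to 0.868 with DFO and 0.897 to 0.921 without. The marker sums and this ratio move with DFO beside every DFO result below. The myotube sum and the ratio are also lower with PGC-1α plus DFO than with GFP plus DFO, and the myotube sum lower with PGC-1α than with GFP, beside the PGC-1α results. Their part in any result was not tested. In RNA from whole cultures, fewer cells of a type and less RNA per cell cannot be told apart.

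Natriuretic peptides are hormones best known from heart muscle. Nppa encodes atrial and Nppb brain natriuretic peptide, which are cut from longer precursors and act through the guanylyl cyclase receptor Npr1 and cyclic GMP. Tgfb3, Mstn (myostatin) and Gdf15 belong to the transforming growth factor β (TGF-β) superfamily. The ligands made from Tgfb3 and Mstn signal through paired serine/threonine kinase receptors and Smad proteins, and myostatin restrains muscle growth. Igf1 and Igf2 encode insulin-like growth factors, which promote muscle growth and differentiation. Il15 encodes interleukin 15, Metrnl the secreted protein meteorin-like, and Fndc5 the membrane protein from which irisin is released.

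The mouse genes Nppb and Nppa lie next to each other on chromosome 4, with 0 genes listed between them in RefSeq's GRCm38.p6 table. The 250 bases before each start are shown because Nppb differed between groups, while the signal of its neighbour Nppa was low on all arrays. Both are on the plus strand of GRCm38.p6, from RefSeq, Nppb at chr4:147985650-147985899 and Nppa at chr4:148000472-148000721, and capitals mark the motif matches described next.
Nppb: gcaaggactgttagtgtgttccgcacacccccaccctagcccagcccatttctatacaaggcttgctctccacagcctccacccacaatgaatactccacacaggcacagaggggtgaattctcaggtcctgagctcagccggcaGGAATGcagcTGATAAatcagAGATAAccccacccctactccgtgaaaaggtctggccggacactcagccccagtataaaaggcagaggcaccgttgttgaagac
Nppa: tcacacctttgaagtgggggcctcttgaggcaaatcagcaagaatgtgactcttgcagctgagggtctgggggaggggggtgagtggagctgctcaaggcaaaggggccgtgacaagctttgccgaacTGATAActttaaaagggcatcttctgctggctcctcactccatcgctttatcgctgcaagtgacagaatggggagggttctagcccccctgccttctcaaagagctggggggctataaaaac

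Both strands were searched for 7 motifs. They were the oestrogen-related receptor element TCAAGGTCA and the half-site AAGGTCA that lies within it, the hypoxia-inducible factor cores ACGTG and GCGTG, the M-CAT element CATTCC of TEAD factors, and AGATAA and TGATAA of GATA factors. The Nppb window held TGATAA at position -95 and AGATAA at position -84 relative to the start, and CATTCC on the opposite strand at -105. The Nppa window held TGATAA at position -122. Of 32851 such windows, which belong to 27025 genes, 7.94% held TGATAA, 9.99% AGATAA and 12.6% CATTCC. The letters of the other 4 motifs, held by 0.39%, 4.08%, 16.6% and 28.2% of windows in the order given, were in neither window, which covers only 250 bases.

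Nppb was high with the PGC-1α construct and highest when DFO was added. It read 3282 and 3272 units with PGC-1α plus DFO, 1459 and 1488 with PGC-1α, 75.4 and 86.8 with GFP plus DFO, and 102 and 79.7 with GFP. Both pairs of PGC-1α arrays lay far above all 4 GFP arrays, and the 2 GFP groups overlapped each other. The log2 difference of PGC-1α from GFP was 5.34 ± 0.15 (SE) with DFO and 4.03 ± 0.15 without, which is 40.5-fold and 16.3-fold. DFO went with a log2 difference of 1.15 ± 0.15 in PGC-1α myotubes and of -0.16 ± 0.15 in GFP myotubes. The 2 changes with PGC-1α therefore differed by 1.31 ± 0.21 on the log2 scale. Scaled to the poly-A spike-ins, control RNAs added before labelling, that difference was 1.75 and the 2 changes with PGC-1α were 5.96 with DFO and 4.21 without. This scaling shifts the change of every gene in a comparison by the same amount.

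Nppa stayed at the dim end of the arrays. It read 9.90 and 4.26 units with PGC-1α plus DFO, 22.7 and 13.9 with PGC-1α, 22.0 and 18.5 with GFP plus DFO, and 19.3 and 4.93 with GFP, where the 25th percentile of an array was 18.7 to 21.8 units. No comparison passed for it by limma, and its intervals were wide. The log2 change of PGC-1α against GFP was -1.63 (95% interval -3.53 to 0.26) with DFO and 0.86 (-1.03 to 2.76) without, and the 2 differed by -2.50 ± 1.06 (adjusted p = 0.315). With a floor at each array's 25th percentile that difference was -0.10.

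**Figure D1:**
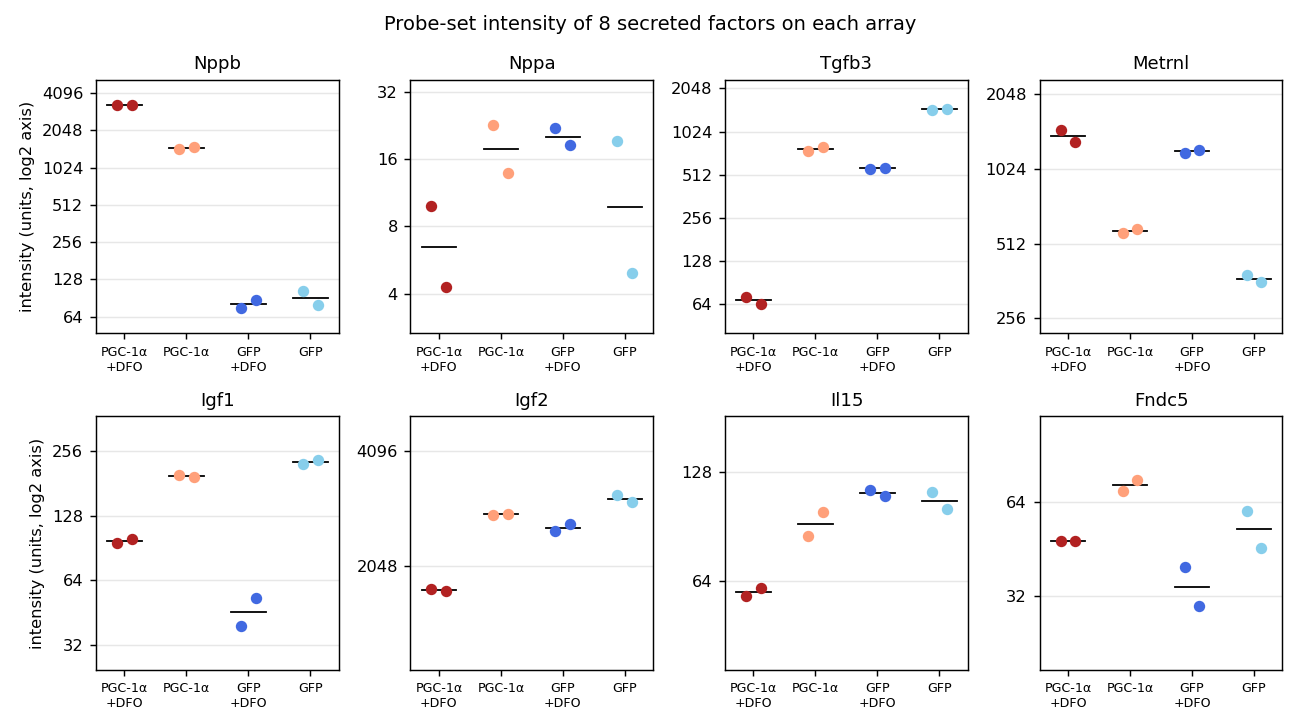
Intensity of the leading probe set of 8 secreted factors on each array, on a log2 axis, for PGC-1α plus DFO, PGC-1α, GFP plus DFO and GFP, with points for the 2 arrays of a group and a line at the mean of their log2 values. Nppb sits at 1459 to 3282 units on the 4 PGC-1α arrays and at 75.4 to 102 on the 4 GFP arrays, and Tgfb3 is lowest, at 64.5 and 71.8 units, with PGC-1α plus DFO.

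Of the 12 genes listed for natriuretic peptide processing, receptors and cyclic GMP signalling, 11 were measured. With DFO in PGC-1α myotubes 2 passed higher and 3 lower, where 11.4% and 14.2% of all genes did (limma, adjusted p under 0.05). In GFP myotubes DFO gave 2 higher and 2 lower, where 11.8% and 12.5% of all genes did. Npr3, the receptor that clears natriuretic peptides from the medium, rose with DFO by 1.89 ± 0.29 on the log2 scale in PGC-1α myotubes (adjusted p = 0.00872) and by 3.30 ± 0.29 in GFP myotubes (adjusted p = 0.00163). Nppc, which encodes C-type natriuretic peptide, rose by 0.95 ± 0.22 in PGC-1α myotubes (adjusted p = 0.0294). Both lay below the median level of all genes and are named after their values were seen. Prkg1, a cyclic GMP-dependent protein kinase, fell with DFO by 1.39 ± 0.12 on the log2 scale in PGC-1α myotubes (adjusted p = 0.00143) and by 0.91 ± 0.12 in GFP myotubes (adjusted p = 0.00582). Pde5a, which breaks down cyclic GMP, fell with DFO by 1.37 ± 0.22 in PGC-1α myotubes (adjusted p = 0.00909, and 0.0515 without PGC-1α replicate 1). Ide, a protease that degrades small peptide hormones, fell by 0.76 ± 0.09 in PGC-1α myotubes (adjusted p = 0.00399) and by 0.93 ± 0.09 in GFP myotubes (adjusted p = 0.00226). Prkg2, a second such kinase, rose there by 0.95 ± 0.17 (adjusted p = 0.0155), a call that was lost without GFP replicate 1 (0.0774) or GFP plus DFO replicate 1 (0.0936) or 2 (0.0678).

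With PGC-1α against GFP under DFO, 0 of the 11 passed higher and 2 lower, where 6.93% and 12% of all genes did. Prkg1 fell by 0.72 ± 0.12 (adjusted p = 0.0169) and Pde5a by 1.25 ± 0.22 (adjusted p = 0.0176). The Prkg1 call ended without PGC-1α plus DFO replicate 2 (0.0578) or GFP plus DFO replicate 1 (0.113) or 2 (0.0798), and that of Pde5a without GFP plus DFO replicate 1 (0.108) or 2 (0.0874). Both ended on the spike-in scale, and that of Pde5a when its probe sets were averaged (-0.16, adjusted p = 0.637). In cells without DFO, 1 of the 11 passed higher and 0 lower, where 4.96% and 4.77% of all genes did, and it was Npr3, at 1.97 ± 0.29 (adjusted p = 0.0197).

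Tgfb3, a ligand of the TGF-β branch, was lower with each factor and by far lowest with both. It read 71.8 and 64.5 units with PGC-1α plus DFO, 756 and 806 with PGC-1α, 565 and 575 with GFP plus DFO, and 1457 and 1473 with GFP. No 2 groups overlapped, and the order from high to low was GFP, PGC-1α, GFP plus DFO, PGC-1α plus DFO. On the log2 scale PGC-1α minus GFP was -3.07 ± 0.09 with DFO and -0.91 ± 0.09 without. That of DFO from no DFO was -3.52 ± 0.09 in PGC-1α myotubes and -1.36 ± 0.09 in GFP myotubes. Both together had a log2 difference of -4.43 ± 0.09 from GFP, where the single changes add up to -2.27. The gap between the 2 was -2.16 ± 0.13, and -1.72 on the spike-in scale. Only 1 probe set was annotated to Tgfb3 alone, as was the case for Nppb, Nppa and Il15.

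**Figure D2:**
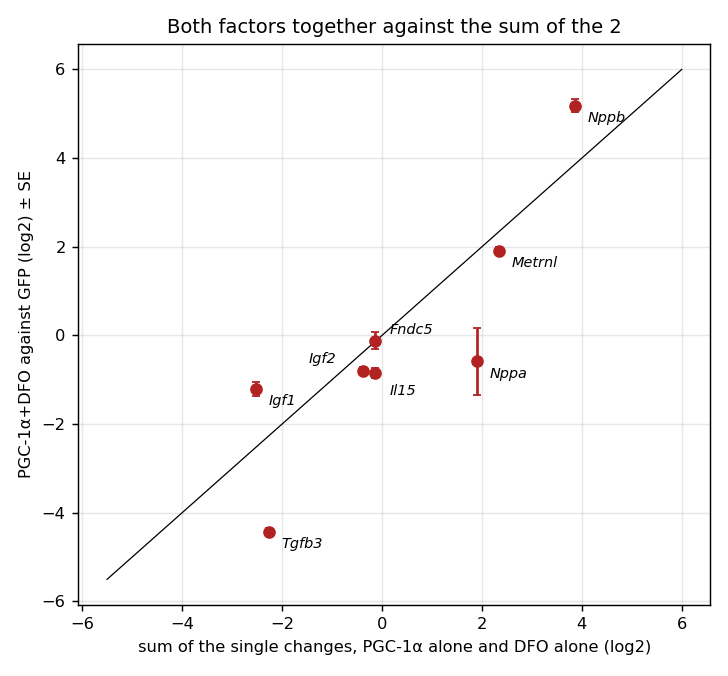
Log2 change of PGC-1α plus DFO against GFP (vertical axis, ± SE) against the sum of the changes with PGC-1α alone and DFO alone (horizontal axis) for the 8 measured factors, with the line where the 2 are equal. Tgfb3 differs from the line by -2.16, Nppb and Igf1 each by 1.31, and Nppa, at its low signal, by -2.50. For Igf1 this is the leading probe set, and the mean of its probe sets gave -0.009. All 3 quantities share the GFP arrays.

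Other ligands, inhibitors and receptors of the myostatin, activin and TGF-β branches were counted over 29 measured genes of 30. With DFO in PGC-1α myotubes 9 passed higher and 4 lower (11.4% and 14.2% of all genes), and in GFP myotubes 9 higher and 2 lower (11.8% and 12.5%). Fst, follistatin, which binds and blocks activin and myostatin, read 20.3 ± 13.5 units with PGC-1α plus DFO and 388 ± 27.8 with PGC-1α, a log2 change of -4.44 ± 0.47 (adjusted p = 0.00249). With PGC-1α plus DFO its arrays read 29.8 and 10.8 units, where their 25th percentiles were 20.95 and 19.3, so the size of this fall is uncertain. It was -5.17 without PGC-1α plus DFO replicate 1, -3.70 without replicate 2 and -3.40 with its probe sets averaged, and passed in each case. In GFP myotubes it read 103 ± 5.88 with DFO and 888 ± 110 without (log2 change -3.10 ± 0.47, adjusted p = 0.00812), a call that ended without GFP plus DFO replicate 1 (0.0511) or 2 (0.0568). Fstl3, a related inhibitor, went the other way, with 821 ± 78.7 units with PGC-1α plus DFO and 118 ± 0.453 with PGC-1α, and 835 ± 53.5 with GFP plus DFO and 130 ± 6.54 with GFP. Its log2 changes were 2.80 ± 0.11 (adjusted p = 0.000146) and 2.68 ± 0.11 (adjusted p = 0.00026).

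Tgfb2, a ligand close to Tgfb3, also changed with DFO by -2.48 ± 0.28 in PGC-1α myotubes (adjusted p = 0.00306) and by -2.27 ± 0.28 in GFP myotubes (adjusted p = 0.0043). Smad7, which inhibits the pathway, rose by 1.55 ± 0.23 (adjusted p = 0.00747) and 2.46 ± 0.23 (adjusted p = 0.00187) in the same 2 comparisons.

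With PGC-1α against GFP under DFO, 1 of the 29 passed higher and 7 lower (6.93% and 12% of all genes). Fst fell by 2.52 ± 0.47 (adjusted p = 0.0213, and 0.118 and 0.101 without GFP plus DFO replicate 1 or 2), a size as uncertain as the last. It was -3.26 without PGC-1α plus DFO replicate 1, -1.79 without replicate 2, -1.55 with its probe sets averaged and -1.91 scaled to spike-ins. Inhbb, an activin subunit, fell by 1.27 ± 0.08 (adjusted p = 0.00138), a call that ended on the spike-in scale. Inhba, the other main activin subunit, rose by 0.41 ± 0.10 (adjusted p = 0.0443), but that call ended without any 1 of the 8 arrays, with adjusted p between 0.0692 and 0.221, and its direction turned when its probe sets were averaged. In cells without DFO 0 of the 29 passed higher and 1 lower, where 4.96% and 4.77% of all genes did. It was Tgfbr1, a type I receptor, which fell by 0.51 ± 0.11 (adjusted p = 0.0462).

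Genes known to respond to TGF-β or myostatin gave 13 measured of 14. With DFO in PGC-1α myotubes 3 passed higher and 4 lower, beside 11.4% and 14.2% of all genes, and in GFP myotubes 6 higher and 2 lower, beside 11.8% and 12.5%. The rises were led by Bhlhe40, a transcription repressor that also responds to hypoxia, at 2.12 ± 0.08 in PGC-1α and 2.47 ± 0.08 in GFP myotubes (adjusted p = 0.000149 and 0.000171), and by Timp1, an inhibitor of matrix proteases, at 1.08 ± 0.08 and 1.29 ± 0.08 (adjusted p = 0.000921 and 0.000642). The falls were led by Acta2, smooth muscle actin, and Tagln, an actin-binding protein. Acta2 read 756 ± 7.04 units with PGC-1α plus DFO, 6749 ± 275 with PGC-1α, 1878 ± 67.9 with GFP plus DFO and 8343 ± 129 with GFP. Tagln fell with DFO by 1.47 ± 0.11 and 1.91 ± 0.11 (adjusted p = 0.000842 and 0.000478).

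With PGC-1α against GFP under DFO 1 of the 13 passed higher and 5 lower (6.93% and 12% of all genes), and 1 higher and 0 lower without DFO (4.96% and 4.77%). The gene that passed higher was Cdkn2b, a cell cycle inhibitor named after its values were seen, at 1.08 ± 0.26 (adjusted p = 0.0439) and 1.81 ± 0.26 (adjusted p = 0.018). Under DFO Acta2 fell by 1.31 ± 0.08 (adjusted p = 0.00124) and Ccn2, connective tissue growth factor, by 1.25 ± 0.09 (adjusted p = 0.00159), a call that ended on the spike-in scale. The Acta2 value comes from a probe set that can match several transcripts. Without probe sets of that kind Acta2 had a log2 change of 0.53 (adjusted p = 0.288), so its direction depended on the probe set.

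Igf1 fell with DFO in both kinds of myotube. Its leading probe set read 95.3 and 100 units with PGC-1α plus DFO, 197 and 194 with PGC-1α, 39.5 and 52.8 with GFP plus DFO, and 222 and 231 with GFP. No 2 groups overlapped, with GFP highest and GFP plus DFO lowest. The log2 change with DFO was -0.9997 ± 0.15 in PGC-1α myotubes (limma adjusted p = 0.00788, or 0.151 scaled to spike-ins) and -2.31 ± 0.15 in GFP myotubes (adjusted p = 0.000652, or -1.20 with adjusted p = 0.00467 averaged over its probe sets). With PGC-1α against GFP it rose under DFO by 1.10 ± 0.15 (adjusted p = 0.00896, ended with the mean of its probe sets and in a fit of only these groups), and had -0.21 ± 0.15 without DFO (adjusted p = 0.427). The 2 changes with PGC-1α differed by 1.31 ± 0.21, which did not pass over all genes (adjusted p = 0.0768). With the mean of its probe sets this difference was -0.009.

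Igf1 had 4 probe sets, here ranked by brightness and fitted one by one, a setting added after seeing the data. The fall with DFO was found in 3 of them. In PGC-1α myotubes the third fell by 1.38 ± 0.11 (limma adjusted p = 0.00138). The fourth passed lower there as well (log2 change -2.63 ± 0.26, adjusted p = 0.00297), but with PGC-1α plus DFO it read 20.8 and 13.6 units, where the arrays' 25th percentiles were 20.95 and 19.3, so that size is uncertain. In GFP myotubes the fourth fell by 1.54 ± 0.26 (adjusted p = 0.016) and the third by 1.49 ± 0.11 (adjusted p = 0.00137). The second, with 80.1 and 142 units with PGC-1α plus DFO against 119 and 74.9 with PGC-1α, gave 0.17 ± 0.41 in PGC-1α myotubes and 0.55 ± 0.41 in GFP myotubes (adjusted p = 0.818 and 0.442). For PGC-1α against GFP under DFO the third rose, as the leading one did, by 0.55 ± 0.11 (adjusted p = 0.0308). The second, at 0.17 ± 0.41 (adjusted p = 0.845), and the fourth, at -0.71 ± 0.26 (adjusted p = 0.153), did not pass. The 2 changes with PGC-1α differed by -0.37 ± 0.59 in the second, 0.11 ± 0.15 in the third and -1.08 ± 0.37 in the fourth. The stretch of transcript that each reads was not analysed here.

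**Figure D3:**
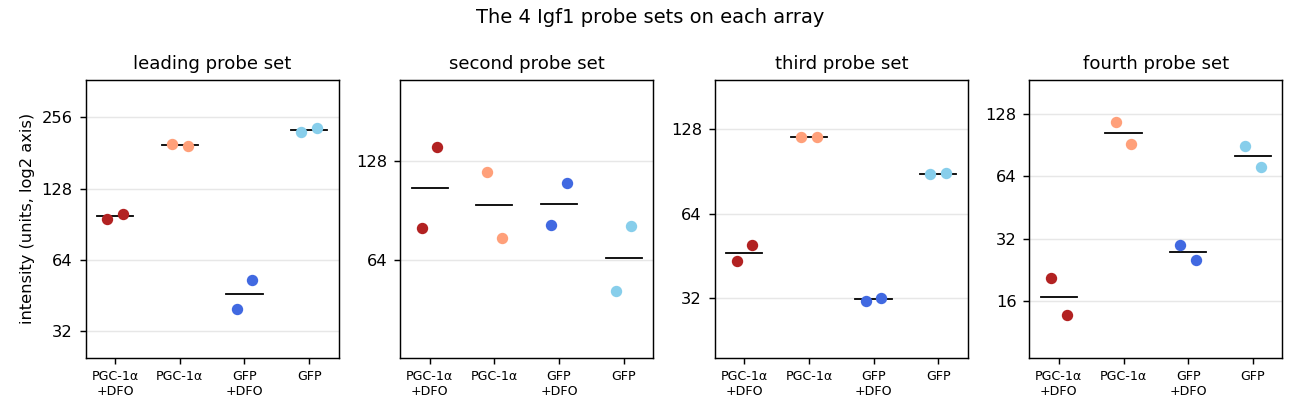
Intensity of the 4 probe sets of Igf1, from brightest to dimmest, on each array, on a log2 axis, for PGC-1α plus DFO, PGC-1α, GFP plus DFO and GFP, with points for the 2 arrays of a group and a line at the mean of their log2 values. In the leading, the third and the fourth probe set all arrays with DFO lie below all without, while in the second the groups overlap.

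Igf2 changed less. It read 1782 and 1763 units with PGC-1α plus DFO, 2791 and 2805 with PGC-1α, 2533 and 2632 with GFP plus DFO, and 3142 and 3008 with GFP, so the 2 arrays with both factors lay below the other 6. It fell with DFO by 0.66 ± 0.08 in PGC-1α myotubes (adjusted p = 0.00357), and had -0.25 ± 0.08 in GFP myotubes (adjusted p = 0.0747). Under DFO it fell with PGC-1α by 0.54 ± 0.08 (adjusted p = 0.01), and without DFO it had -0.14 ± 0.08 (adjusted p = 0.325). The call under DFO was lost without GFP plus DFO replicate 1 (adjusted p = 0.0707) or 2 (0.0811), with the mean of both probe sets (0.058) and in a fit of only these groups (0.0735). On the spike-in scale neither fall passed, with -0.22 (adjusted p = 0.395) for DFO in PGC-1α myotubes and 0.07 (adjusted p = 0.768) for PGC-1α under DFO. The other Igf2 probe set gave -1.82 ± 0.32 (adjusted p = 0.0169) and -0.89 ± 0.32 (adjusted p = 0.146) in these 2 comparisons.

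Among receptors, binding proteins and regulators of insulin-like growth factors 17 of 19 were measured. With DFO 2 passed higher and 4 lower in PGC-1α myotubes, and 2 higher and 3 lower in GFP myotubes, together 35.3% and 29.4% of the list, not far from the 25.6% and 24.2% of all genes. Igfbp5, a binding protein made by differentiating muscle, read 1747 ± 236 units with PGC-1α plus DFO, 5753 ± 75.0 with PGC-1α, 5619 ± 41.1 with GFP plus DFO and 8561 ± 276 with GFP. It fell by 1.73 ± 0.11 with DFO in PGC-1α myotubes (adjusted p = 0.000585). With PGC-1α it fell by 1.69 ± 0.11 under DFO (adjusted p = 0.00141) and by 0.57 ± 0.11 without (adjusted p = 0.0408). Irs1, which relays signals from the insulin and Igf1 receptors, fell with DFO by 1.92 ± 0.09 in PGC-1α (adjusted p = 0.00026) and 1.42 ± 0.09 in GFP myotubes (adjusted p = 0.000697). Igfbp7, a related binding protein, rose with DFO by 1.65 ± 0.09 in PGC-1α (adjusted p = 0.000402) and 1.99 ± 0.09 in GFP myotubes (adjusted p = 0.000316), and with the mean of its probe sets these changes were 0.089 (adjusted p = 0.697) and 0.58 (adjusted p = 0.0351). Igf1r, the Igf1 receptor, rose in GFP myotubes by 0.99 ± 0.20 (adjusted p = 0.0227), a call that ended without any 1 of the 4 arrays compared (0.0733 to 0.123) and on the spike-in scale.

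With PGC-1α against GFP, 1 of the 17 passed higher and 3 lower under DFO, and 2 higher and 3 lower without, where 18.9% and 9.73% of all genes passed in either direction. Igfbp2, another binding protein, read 614 ± 5.77 units with PGC-1α plus DFO, 820 ± 2.67 with PGC-1α, 303 ± 3.47 with GFP plus DFO and 548 ± 10.4 with GFP. It rose with PGC-1α by 1.02 ± 0.07 under DFO (adjusted p = 0.00169) and 0.58 ± 0.07 without (adjusted p = 0.0133), and fell with DFO in GFP myotubes by 0.85 ± 0.07 (adjusted p = 0.00151). Irs1 fell with PGC-1α by 1.09 ± 0.09 under DFO (adjusted p = 0.00255, ended on the spike-in scale) and 0.58 ± 0.09 without (adjusted p = 0.0241). Without DFO Igfbp4 rose by 0.61 ± 0.10 (adjusted p = 0.0222, but 0.234 averaged over its probe sets) and Igfbp6 fell by 0.58 ± 0.10 (adjusted p = 0.0277).

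Metrnl rose with DFO in both kinds of myotube. It read 1466 and 1314 units with PGC-1α plus DFO, 566 and 588 with PGC-1α, 1191 and 1220 with GFP plus DFO, and 383 and 357 with GFP, with no overlap between groups. The rise with DFO was 1.27 ± 0.09 on the log2 scale in PGC-1α (adjusted p = 0.000842) and 1.71 ± 0.09 in GFP myotubes (adjusted p = 0.000431). With PGC-1α it had 0.20 ± 0.09 under DFO (adjusted p = 0.217, or 0.82 with adjusted p = 0.0306 when scaled to spike-ins), and rose by 0.64 ± 0.09 without (adjusted p = 0.0189). This last call was lost on leaving out PGC-1α replicate 1 (0.101) or 2 (0.0935), GFP plus DFO replicate 1 or 2 (0.0643 each) or GFP replicate 1 (0.0756) or 2 (0.0784), when scaled to spike-ins (0.086) and in a fit of only these groups (0.0924). With the mean of the 3 Metrnl probe sets it turned to -0.24 (adjusted p = 0.355), and the rise with DFO in GFP myotubes was 0.46 (adjusted p = 0.0726). The other 2 probe sets of Metrnl were dimmer and did not follow the leading one. The second had log2 changes with DFO of 0.25 ± 0.17 and 0.17 ± 0.17 (adjusted p = 0.39 and 0.57), and the third 0.62 ± 0.20 and -0.50 ± 0.20 (adjusted p = 0.0915 and 0.164). The third is of a type that can match several transcripts, and with PGC-1α it read 18.8 and 21.3 units, where the arrays' 25th percentiles were 18.65 and 20.4. It passed lower with PGC-1α without DFO (log2 change -1.22 ± 0.20, adjusted p = 0.0362), a size that is uncertain at so low a signal.

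Il15 was lowest with both factors. It read 57.8 and 61.0 units with PGC-1α plus DFO, 85.0 and 99.3 with PGC-1α, 115 and 110 with GFP plus DFO, and 113 and 101 with GFP. The 2 arrays with both factors lay below the other 6, and the 2 GFP groups overlapped. It fell with DFO in PGC-1α myotubes by 0.63 ± 0.12 (adjusted p = 0.0149) and with PGC-1α under DFO by 0.92 ± 0.12 (adjusted p = 0.00698). It had 0.07 ± 0.12 with DFO in GFP myotubes (adjusted p = 0.713) and -0.22 ± 0.12 with PGC-1α without DFO (adjusted p = 0.297). Neither fall passed on the spike-in scale, where they were -0.19 (adjusted p = 0.527) and -0.30 (adjusted p = 0.308). The first also ended without PGC-1α plus DFO replicate 1 (0.0567) or PGC-1α replicate 2 (0.0662) and in a fit of only these groups (0.0818), and the second without GFP plus DFO replicate 1 (0.0627) or 2 (0.0512).

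Fndc5 passed in no comparison by limma. It read 48.1 on both arrays with PGC-1α plus DFO, 69.5 and 75.4 with PGC-1α, 39.6 and 29.6 with GFP plus DFO, and 60.0 and 45.6 with GFP, so the PGC-1α arrays lay above the GFP arrays both with and without DFO. The log2 changes with PGC-1α were 0.49 (95% interval -0.0021 to 0.98) under DFO and 0.47 (-0.024 to 0.96) without, with adjusted p = 0.157 and 0.197. Scaled to spike-ins the change under DFO was 1.11 (adjusted p = 0.0212). Those with DFO were -0.59 ± 0.19 in PGC-1α and -0.61 ± 0.19 in GFP myotubes (adjusted p = 0.0858 and 0.0816). The second probe set read 1.75 to 43.2 units over the 8 arrays.

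**Figure D4:**
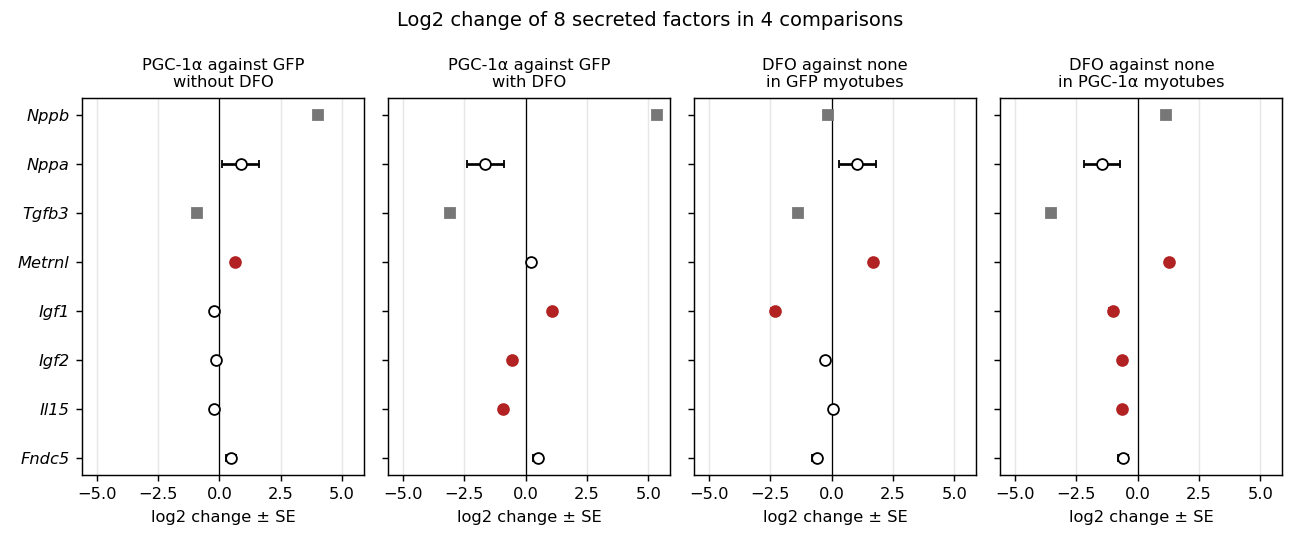
Log2 change (horizontal axis, bars ± SE, often smaller than the symbol) of the 8 measured factors in 4 comparisons, of PGC-1α against GFP with and without DFO and of DFO against none in PGC-1α and GFP myotubes. Red circles passed a limma adjusted p of 0.05, open circles did not, and grey squares are Nppb and Tgfb3, which were not tested; Nppb has the largest difference with PGC-1α and Tgfb3 the most negative.

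Of the 6 tested factors, 3 passed for PGC-1α against GFP under DFO, 1 higher and 2 lower, where 18.9% of all genes passed. Without DFO 1 passed, higher, where 9.73% of all genes did. With DFO against none 4 passed in PGC-1α myotubes, 1 higher and 3 lower, where 25.6% of all genes did, and 2 in GFP myotubes, 1 of each, where 24.2% did. The median log2 change of the 6 was -0.17, 0.17, -0.64 and -0.09 in these 4 comparisons, beside -0.05, -0.08, 0.01 and -0.02 over all genes. For the interaction, the difference between the 2 changes with PGC-1α, limma passed 0 of the 6, where 0.555% of all genes passed, and 4 had an unadjusted p under 0.05, where 17.4% of all genes did. The 4 comparisons share arrays pairwise, so they are not independent of each other.

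Partners and receptors of these factors gave 8 measured of 10, with Ppargc1a itself among them. With PGC-1α the construct's gene was the 1 that passed higher both with and without DFO, by 7.34 ± 0.55 and 7.77 ± 0.55 (adjusted p = 0.00174 and 0.00315). Under DFO the value was 6.47 without GFP plus DFO replicate 1 and 8.20 without replicate 2, arrays that read 26.6 and 88.1 units. Averaged over its probe sets the changes were 0.73 under DFO (adjusted p = 0.0515) and 0.86 without (adjusted p = 0.0544). Itgb1, an integrin subunit, was the 1 that fell, by 0.80 ± 0.07 under DFO and 0.58 ± 0.07 without (adjusted p = 0.00301 and 0.013), and both calls ended on the spike-in scale. Of all genes 6.93% passed higher and 12% lower with PGC-1α under DFO, and 4.96% and 4.77% without. With DFO 1 of the 8 passed higher and 1 lower in PGC-1α myotubes (11.4% and 14.2% of all genes). In GFP myotubes 2 passed higher and 0 lower (11.8% and 12.5%). With DFO, Itgav, an integrin subunit of the reported irisin receptor, rose by 0.86 ± 0.13 in PGC-1α (adjusted p = 0.00838) and 0.64 ± 0.13 in GFP myotubes (adjusted p = 0.0227). Averaged over its probe sets the change in PGC-1α myotubes was -0.19. Its partner Itgb5 rose in GFP myotubes by 0.47 ± 0.11 (adjusted p = 0.0333). The GFP calls of both integrins ended without any 1 of the 4 arrays compared, with adjusted p from 0.0555 to 0.171. Metrn, the paralogue of Metrnl, fell with DFO in PGC-1α myotubes by 0.47 ± 0.10 (adjusted p = 0.0237), a call that ended without PGC-1α plus DFO replicate 1 (0.0644), PGC-1α replicate 1 (0.11) or 2 (0.0881) or GFP plus DFO replicate 1 or 2 (0.0532 each). Scaled to spike-ins it was -0.0277 (adjusted p = 0.929).

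Of 30 other secreted factors 27 were measured. With DFO 9 passed higher and 6 lower in PGC-1α myotubes, and 6 higher and 4 lower in GFP myotubes, where 25.6% and 24.2% of all genes passed in either direction. Apln, the peptide hormone apelin, read 1105 ± 40.8 units with PGC-1α plus DFO, 59.3 ± 1.78 with PGC-1α, 1325 ± 20.3 with GFP plus DFO and 47.3 ± 11.3 with GFP. Fgf21, a metabolic hormone, read 64.0 ± 21.3, 2407 ± 150, 112 ± 2.77 and 3632 ± 127 units in the same order. Their log2 changes with DFO were 4.22 ± 0.17 and -5.27 ± 0.23 in PGC-1α myotubes (adjusted p = 0.000172 and 0.0002). Angptl4, an inhibitor of lipoprotein lipase, read 1328 ± 34.2 units with PGC-1α plus DFO and 348 ± 9.47 with PGC-1α. It rose with DFO in GFP myotubes by 1.30 ± 0.09 (adjusted p = 0.00068), and its direction turned there without probe sets that can match several transcripts. Bmp4, a bone morphogenetic protein, fell there by 1.58 ± 0.13 (adjusted p = 0.00117).

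Cxcl1, a chemokine that attracts neutrophils, was high only where both factors were present, with 7654 ± 145 units with PGC-1α plus DFO, 283 ± 11.0 with PGC-1α, 304 ± 9.45 with GFP plus DFO and 240 ± 2.62 with GFP. It rose with PGC-1α under DFO by 4.65 ± 0.08 (adjusted p = 0.000196), and this change differed from that without DFO by 4.42 ± 0.11 (adjusted p = 0.00186, and 0.0582 without GFP plus DFO replicate 1). This leading probe set is of a type that can match several transcripts, and without that type the 2 values were 7.45 and 6.57. Postn, the matrix protein periostin, read 179 ± 4.45, 845 ± 25.3, 503 ± 41.7 and 737 ± 23.9 units in the same order of groups. With PGC-1α under DFO 7 of the 27 passed higher and 3 lower (6.93% and 12% of all genes). They included Ccl2, a chemokine for monocytes, at 1.63 ± 0.11 (adjusted p = 0.00135), Postn at -1.49 ± 0.09 (adjusted p = 0.00132) and Bdnf, a neurotrophin, at -1.15 ± 0.17 (adjusted p = 0.0116, and 0.0789 and 0.0763 without GFP plus DFO replicate 1 or 2). Without DFO 2 of the 27 passed higher and 0 lower, where 4.96% and 4.77% of all genes did. They were the angiogenic factors Vegfb at 1.39 ± 0.17 (adjusted p = 0.0124) and Vegfa at 0.73 ± 0.09 (adjusted p = 0.012).

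Many calls for PGC-1α against GFP without DFO ended when 1 array was left out. This also held for arrays outside the 2 groups compared, whose removal leaves the log2 change itself as it was. Those of Tgfbr1, Igfbp2, Igfbp4, Igfbp6, Irs1, Itgb1, Vegfa and Vegfb all ended without GFP replicate 1 (adjusted p from 0.0665 to 0.122) and also on leaving out PGC-1α replicate 2 (0.0527 to 0.14). All but Irs1 and Vegfa ended without GFP replicate 2 (0.0571 to 0.141), and all but Vegfb without PGC-1α replicate 1 (0.084 to 0.186). All but Vegfa and Vegfb ended when GFP plus DFO replicate 1 or 2 was left out (0.0539 to 0.113), and all but Vegfb on the spike-in scale. In a fit of only the groups compared all 8 ended (0.0854 to 0.125), as did that of Ppargc1a (0.0667). No pathway gene passed in that fit, so the calls of Npr3, Cdkn2b and Igfbp5 without DFO ended there too. In such fits the calls of Fst (0.106), Inhba (0.116), Prkg1 (0.0819), Pde5a (0.0823) and Bdnf (0.0648) for PGC-1α under DFO ended too, and those of Itgav (0.0631), Metrn (0.109) and Pde5a (0.0582) for DFO in PGC-1α myotubes.

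**Figure D5:**
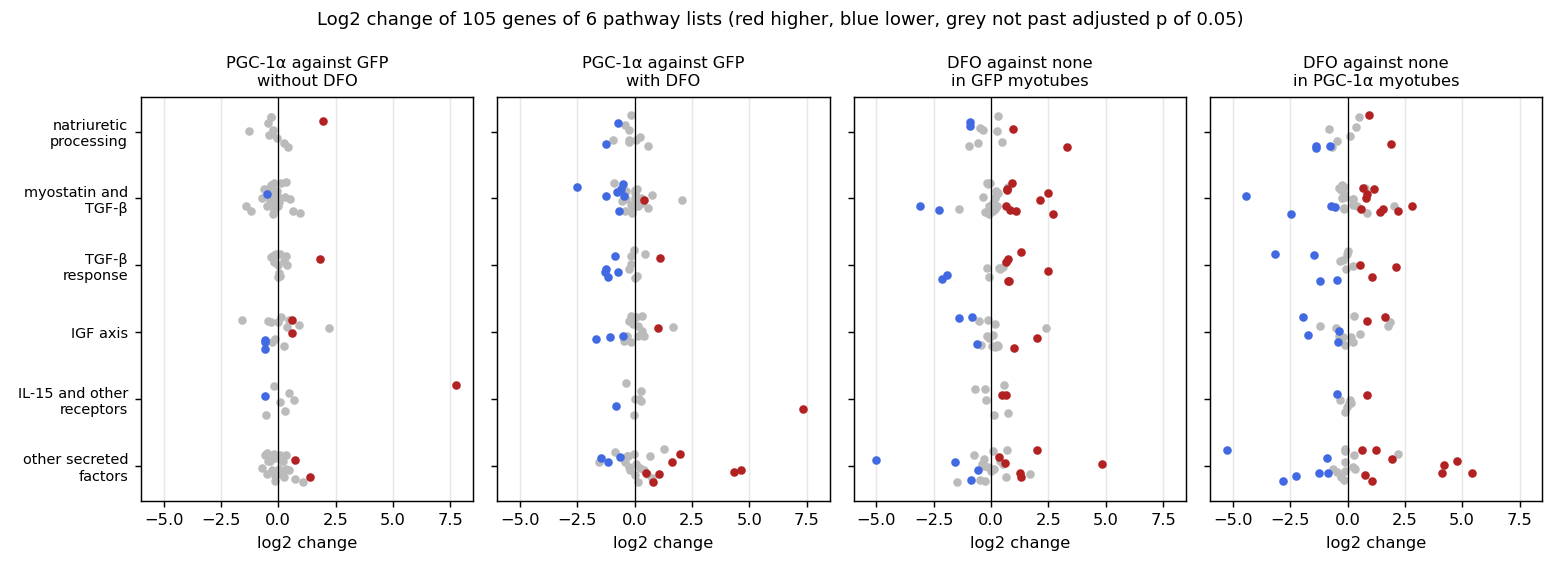
Log2 change (horizontal axis) of all measured genes of the 6 pathway lists, 1 point a gene and 1 row a list, in 4 comparisons, of PGC-1α against GFP without and with DFO and of DFO against none in GFP and PGC-1α myotubes. Red and blue points passed a limma adjusted p of 0.05 higher and lower, 12 genes for PGC-1α without DFO and 48 for DFO in PGC-1α myotubes, and the red point near 7.5 is Ppargc1a.

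The genes whose levels followed Nppb most closely over the 8 arrays, among 9095 genes above the median level, were Letmd1, Hagh and Ppif, with Pearson r of 0.998, 0.996 and 0.996. Letmd1, a mitochondrial membrane protein gene, read 1163 ± 72.5 units with PGC-1α plus DFO, 800 ± 4.24 with PGC-1α, 242 ± 12.5 with GFP plus DFO and 250 ± 4.29 with GFP. Those closest to Tgfb3 were Klhl30, Fads3 and Rbbp4, with r of 0.998, 0.998 and 0.998. Klhl30 read 606 ± 59.3, 2166 ± 52.6, 1893 ± 20.8 and 3220 ± 141 units in the same order. These correlations describe 4 groups of 2 arrays that all genes share.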

How the data were processed

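RNA of 8 C2C12 cultures was read on Affymetrix mouse arrays; per the labels' protocols it was column-purified total RNA made into biotinylated cRNA. The authors' deposited unit is a linear probe-set intensity. Probe summary, background correction and array scaling are not given in the sources used here, and 968 to 1082 values an array were exactly 1. Array medians were nearly equal, so these values carry no information on total RNA per culture.

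Intensities were log2-transformed with no pseudocount or filter. Of 45101 probe sets 34945 had 1 symbol, 932 several, 64 were controls and 9160 had none in the annotation given. Group means over the 8 arrays were estimated jointly with limma 3.58.1 (R 4.3.3), with 4 residual degrees of freedom and a prior of 1.3. Its two-sided p-values were adjusted by the Benjamini-Hochberg method over 18193 genes, or over all probe sets with 1 symbol where single probe sets are given, called at 0.05. SE comes from limma and SD from 2 arrays. An exact permutation test of 2 arrays against 2 cannot go below 0.333, so p-values rest on the pooled spread, which may be technical, and the number of arrays limits precision. The fit was tested on simulated data. Figures used matplotlib 3.10.9 in Python 3.11.15.

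The members, the 6 pathway lists and the alternatives were chosen with earlier results of these data known. Pathway genes were named by a rule: per list and comparison up to 2 rises and 2 falls of largest size past the threshold, above the median level and with groups that did not overlap (the interaction without that condition). Ctgf was matched as Ccn2 through its gene ID. Replicate numbers were not used to pair the arrays in the main fit.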

Additional observations from a re-analysis of the deposited data

Results flagged for a closer look

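For 5 of the 105 measured pathway genes the change with PGC-1α differed between cultures with and without DFO by limma's interaction test. That is 4.76% of them, where 0.555% of all genes passed. No test compared these shares, as the lists were chosen with earlier results of these data known. The difference, the change under DFO minus that without, was 4.42 ± 0.11 on the log2 scale for Cxcl1 (SE; adjusted p = 0.00186) and 1.27 ± 0.15 for Ccl2 (adjusted p = 0.05). It was -1.68 ± 0.13 for Postn (adjusted p = 0.0287), -1.24 ± 0.12 for Ccn2 (adjusted p = 0.0443) and -1.01 ± 0.11 for Acta2 (adjusted p = 0.05). The Cxcl1 call ended without GFP plus DFO replicate 1 (adjusted p = 0.0582). Those of the other 4 ended without any 1 of the 8 arrays (adjusted p from 0.0522 to 0.253), on the spike-in scale, when probe sets of a gene were averaged and with the replicate number as a block.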

How the results depend on the processing

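Counts of the 6 tested factors that passed depended on the processing. In the main fit 9.73%, 18.9%, 24.2%, 25.6% and 0.555% of all genes passed, for the comparisons in the order below. The shares of all genes under the other settings are not given here. The counts below therefore show only how calls depend on the processing, and are no result about the listed genes. For PGC-1α against GFP without DFO 1 passed, and 0 did on the spike-in scale, with probe sets of a gene averaged or in a fit of only the groups compared (0 to 1 with 1 array left out). For PGC-1α under DFO 3 passed, and 1 with the mean of probe sets, among the 2 factors above the median level, or with only the groups compared (1 to 3). For DFO in GFP myotubes 2 passed and 1 with the mean of probe sets (2 to 2). For DFO in PGC-1α myotubes 4 passed, 1 on the spike-in scale and 2 above the median level (3 to 4). For the interaction 0 passed, 1 above the median level, 1 with a floor at the 25th percentile and 3 with eBayes' trend and robust options (0 to 0). Of the measured pathway genes 12 passed for PGC-1α without DFO, 4 on the spike-in scale, 25 above the median level, 20 with the floor, 29 with trend and robust options and 0 with only the groups compared (1 to 18). For PGC-1α under DFO 32 passed and 14 with only the groups compared (14 to 36). For DFO in GFP myotubes 40 passed and 26 on the spike-in scale (25 to 42), and for DFO in PGC-1α myotubes 48, and 26 with only the groups compared (34 to 47). For the interaction 5 passed, 8 with quantile normalization, 1 on the spike-in scale, 1 with the mean of probe sets, 3 without the _x_at and _s_at types of probe set, 21 above the median level, 11 with the floor and 28 with trend and robust options (0 to 2). With the replicate block this last count was 1. The same-numbered arrays' deviations correlated between -0.11 and 0.22, highest between the 2 groups with DFO. Such correlations cannot exclude that same-numbered arrays were prepared together.

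Some log2 changes turned sign, none of them past the threshold in the new direction. On the spike-in scale Igf2 had 0.0409 and 0.0739 with PGC-1α without and under DFO and 0.033 for the interaction, where Metrnl had 0.0006. With the mean of probe sets Igf1 had 0.29 and Metrnl -0.24 with PGC-1α without DFO, and the interaction was -0.009 for Igf1, 0.25 for Metrnl and -0.95 for Fndc5. In that setting Inhba had -0.12 with PGC-1α under DFO, and Itgav -0.19 and Metrn 0.0308 with DFO in PGC-1α myotubes. Without those types Acta2 had 0.53 with PGC-1α under DFO and 0.81 for the interaction, and Angptl4 -0.56 with DFO in GFP myotubes. The Fndc5 interaction was -0.0206 with quantile normalization and -0.19 to 0.23 with 1 array left out. With 1 array left out Nppa had -0.12 to 1.85 with PGC-1α without DFO, lowest without GFP replicate 2. With DFO in GFP myotubes Nppb had -0.337 to 0.0225, highest without GFP replicate 1, and Il15 -0.0068 to 0.15, lowest without GFP replicate 2. The spike-in scaling moved the median change of all genes to 0.09 and 0.57 for PGC-1α without and under DFO, and to -0.02 and 0.45 for DFO in GFP and PGC-1α myotubes. Of the genes that passed, 86.2%, 94%, 47.5% and 80.9% were then higher, against 51%, 36.6%, 48.5% and 44.6%. The cause of these differences was not tested.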
